A study of Mus musculus with 2 samples.

Results

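The cells described here were the mouse CD8 T cells with the highest share of RNA from 6 immediate-early genes, Fosb, Egr1, Nr4a1, Fos, Dusp1 and Ier2. The summed unique molecular identifiers (UMIs, 1 per captured RNA molecule) of these genes were divided by all UMIs of the cell, and the top 2% of cells of both libraries pooled were taken as members. Members were thus chosen by measured values, the UMIs of these 6 genes and the total UMIs of the cell. Of 13620 cells with at least 500 genes and at most 10% mitochondrial UMIs, 272 were members (2.00%). The lowest member had 0.131422% of its UMIs in the 6 genes and the highest cell outside had 0.131406%, so scores ran on without a gap across the threshold.

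The study sorted viable CD8 T cells from the spleen of a 25-month-old C57BL/6J wild-type host, 1 month after young CD8 T cells had been transferred into it. The recipient library holds the host's own old cells (CD45.2+CD3e+CD8a+, 24 months of age at transfer). The donor library holds the transferred cells (CD45.1+CD3e+CD8a+, 3 months of age at transfer), from total CD8 T cells isolated with a kit. The donor cells had thus also lived in an old host. The labels leave unsaid if mice were pooled and if recipient and donor cells shared a host. Each group is 1 library, so no test between or within groups was possible. Intervals are 95% intervals that cover counting error only, and a gene was called higher or lower in members when it differed at least 2-fold from the remaining cells in both libraries. The recipient library contributed 143 members of 5619 cells (2.54%, exact binomial interval 2.15 to 2.99%) and the donor library 129 of 8001 (1.61%, interval 1.35 to 1.91%).

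Immediate-early genes are transcribed within minutes of a stimulus, without new protein synthesis, because the factors that switch them on are already present in the resting cell. Mitogen-activated kinases and calcium signals act through serum response factor and CREB at their promoters, and the products include transcription factors (Fos, Fosb, Egr1, Nr4a1, Ier2) and feedback phosphatases (Dusp1). In T cells antigen receptor signalling induces them, and Nr4a1 is widely used as a reporter of such signals, while enzymatic or mechanical handling of tissue can induce Fos, Dusp1 and Ier2 as well.

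Members carried the markers of CD8 T cells. Cd3e, a subunit of the T cell receptor complex, had a UMI in 97.9% of recipient and 96.9% of donor members, and Cd8b1, the CD8 beta chain, in 91.6% and 96.1%. Cd8a, the CD8 alpha chain, stood at 497 CPM (counts per 1000000 UMIs of the same cells) in recipient members against 511 CPM in the remaining recipient cells, and at 437 CPM in donor members against 484 CPM in the remaining donor cells. No UMI of Cd4, of the B cell gene Ms4a1, of the myeloid genes Csf1r, S100a8, S100a9 and C1qa, or of the platelet genes Pf4, Ppbp and Itga2b was found in a member of either library. Other genes of these lists were present at low levels. The summed CD4 T cell markers were at 10.7 CPM in recipient members against 2.70 CPM in remaining cells and at 1.45 CPM in donor members against 2.18 CPM, and Cd40lg, a helper T cell ligand, had a UMI in 4 recipient members (2.80%, against 0.603% of remaining cells). The summed myeloid markers were at 116 CPM in recipient members against 106 CPM and at 94.4 CPM in donor members against 101 CPM. The summed B cell markers were at 272 CPM in recipient members against 223 CPM in remaining cells, and at 158 CPM in donor members against 185 CPM in remaining cells. Igkc, an immunoglobulin gene that T cells do not express, had a UMI in 17.5% of recipient members against 10.7% of remaining cells and in 14.7% of donor members against 8.22%. The source of these UMIs was not tested.

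Members were shallower cells. Their median was 4647 UMIs against 7090 in the remaining recipient cells, and 4571 UMIs against 7966 in the remaining donor cells. The score divides by the total, so the rule itself favours shallow cells, and for the calls across genes and the lineage gates values are also given against remaining cells weighted to the members' depth. The median mitochondrial share was 2.68% in recipient members against 2.87%, and 3.08% in donor members against 3.02%. Ribosomal protein genes took 34.9% of UMIs in recipient members against 40.3%, and 36.2% in donor members against 41.3%.

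The 6 score genes chose the cells, so their levels are a description. Ier2, a nuclear regulator, made up most of the score, with 1081 CPM in recipient members against 243 CPM in remaining cells and 1091 CPM in donor members against 239 CPM. Egr1, a zinc finger transcription factor, was at 439 CPM in recipient members against 8.52 CPM, and at 256 CPM in donor members against 6.72 CPM. Nr4a1, an orphan nuclear receptor, was at 153 CPM in recipient members against 3.80 CPM, and at 170 CPM in donor members against 4.40 CPM. Egr1 had 328 UMIs in recipient members against 341 UMIs spread over the remaining recipient cells, and 176 UMIs in donor members against 428 UMIs over the remaining donor cells. Fos, a subunit of AP-1, was at 222 CPM in recipient members against 31.4 CPM and at 196 CPM in donor members against 25.0 CPM. Dusp1, a phosphatase that inactivates mitogen-activated kinases, was at 147 CPM in recipient members against 22.6 CPM and at 135 CPM in donor members against 19.8 CPM. Fosb, a relative of Fos, was rare in both libraries, with 27 UMIs in recipient members and 11 UMIs in donor members.

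The members were not 1 uniform state. Ier2 had a UMI in 139 of 143 recipient and 128 of 129 donor members, and it was the only score gene detected in 33 recipient members (23.1%) and 32 donor members (24.8%). Neither Egr1 nor Nr4a1 was detected in 75 recipient (52.4%) and 76 donor members (58.9%). Both were detected in 26 recipient (18.2%) and 12 donor members (9.30%). Depth moved with this split: the median was 3600 UMIs in recipient and 3137.5 UMIs in donor members with Ier2 alone, and 6987 and 8369 UMIs in those with both Egr1 and Nr4a1. Lineage moved with it as well. Of the members with Ier2 alone, 17 of 33 recipient and 20 of 32 donor cells held Gzmk, against 5 of 26 and 0 of 12 of those with both Egr1 and Nr4a1. The parts of depth and lineage in the split were not tested.

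Genes outside the score differed between these classes, which differ in depth and lineage too. Egr2, a second zinc finger factor of the Egr family, had a UMI in 17 of the 26 recipient and 8 of the 12 donor members with both Egr1 and Nr4a1. It had no UMI in any of the 33 recipient and 32 donor members with Ier2 alone, nor did Egr3 or Nr4a3. Nfkbid, a nuclear regulator of NF-kB, stood at 450 CPM in the recipient and 600 CPM in the donor members with both genes. In the donor library 1 of these 12 cells held 44 of the 103 Nfkbid UMIs of all members, so the donor value rests largely on that cell. In members with Ier2 alone Nfkbid had 0 UMIs in the recipient and 4 UMIs in the donor library. Cd69, an early surface activation marker, was at 617 CPM in recipient and 707 CPM in donor members with both genes. In members with Ier2 alone Cd69 was at 84.3 CPM in the recipient library, below the 91.3 CPM of its remaining cells, and at 214 CPM in the donor library, above the 107 CPM of its remaining cells. Junb, an AP-1 subunit, was by contrast similar in the members with both genes (1092 CPM recipient, 1224 CPM donor) and in those with Ier2 alone (1037 CPM recipient, 1155 CPM donor). Markers of receptor activation were thus found in some of the members, and in recipient members with Ier2 alone Cd69 was not above the remaining cells.

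**Figure D1:**
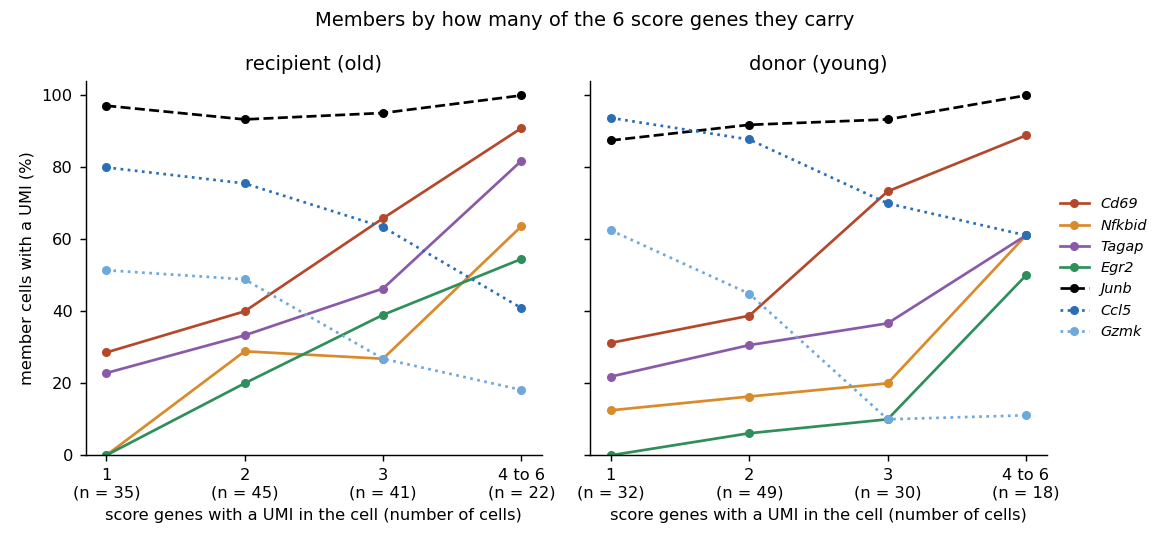
Share of member cells (y axis, percent) with at least 1 UMI of each named gene, by how many of the 6 score genes the cell carried (x axis), in recipient (left) and donor (right) members; n is the number of cells. Egr2 was at 0 of 35 recipient and 0 of 32 donor cells with 1 score gene, while Junb was detected in most cells of every class and Gzmk and Ccl5 were detected in a smaller share of cells with 4 to 6 score genes than of cells with 1.

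Egr2, Egr3 and Nr4a3 are other immediate-early genes that the rule did not use, and all were low in the remaining cells. Egr2 (mm10, chr10:67535475-67542188) had 75 UMIs in recipient members, 100 CPM against 1.37 CPM in remaining cells, a log2 ratio of 6.19 (interval 5.67 to 6.72). In donor members it had 31 UMIs, 45.0 CPM against 1.08 CPM, a log2 ratio of 5.38 (interval 4.72 to 6.01). With every cell thinned to 2000 UMIs, Egr2 was detected in 15.8% of recipient members against 0.277% of remaining cells and in 5.65% of donor members against 0.268%. Egr3 was at 50.9 CPM in recipient members against 0.899 CPM, and at 39.2 CPM in donor members against 0.707 CPM. Nr4a3 was at 21.4 CPM in recipient members against 2.32 CPM, and at 32.0 CPM in donor members against 2.47 CPM, where 12 of the 22 donor UMIs came from 1 cell. Against remaining cells matched on gate and depth the log2 ratios in recipient and donor were 6.15 and 4.45 for Egr2, 6.23 and 5.97 for Egr3 and 3.20 and 3.83 for Nr4a3. These 3 genes had too few UMIs in all to enter the comparison across genes.

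That comparison took 6850 genes outside the score with at least 1000 UMIs over all kept cells. Of these, 40 (0.584%) were higher in members and 18 (0.263%) were lower. The median log2 ratio over all tested genes was 0.12 in the recipient and 0.13 in the donor library. Against remaining cells weighted to the members' depth and lineage gates (defined below), 19 genes (0.277%) were higher and 9 (0.131%) lower, and 18 of the 19 were among the 40. The 18 were Ccl3, Ccl4, Cd69, Gadd45b, Gch1, Ifng, Kdm6b, Nfkbid, Nfkbiz, Nr4a2, Pim3, Rilpl2, Tagap, Tnf, Tnfsf14, Xcl1, Zfp36 and Zfp36l1. For Ccl3 and Xcl1 the matched donor value rested on a single cell, described below.

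**Figure D2:**
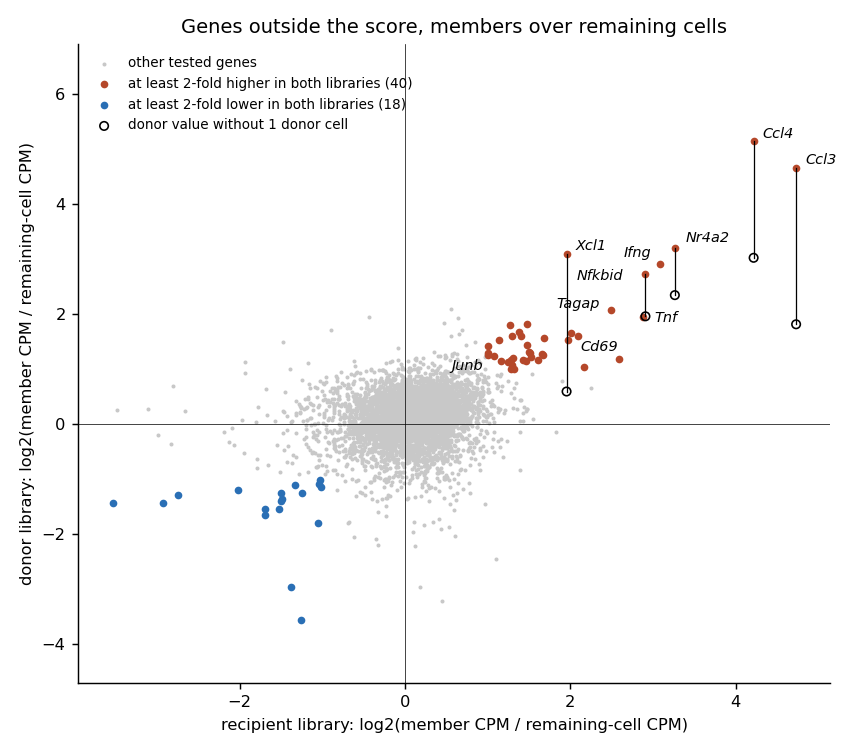
Log2 ratio of members over remaining cells for 6850 genes outside the score, in the recipient library (x axis) and the donor library (y axis), without 2 immunoglobulin genes whose ratio had no bound. The 40 genes at least 2-fold higher and the 18 at least 2-fold lower in both libraries are coloured, and open circles give the donor value without 1 donor cell, which took Xcl1 to 0.59 and Ccl3 to 1.81.

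Of 31 other immediate-early genes listed, 18 entered the comparison. 6 of these 18 were higher, Junb, Nr4a2, Ier3, Zfp36, Zfp36l1 and Csrnp1, against 0.584% of all tested genes, none was lower, and the list's median log2 ratio was 0.70 in the recipient and 0.78 in the donor library. Junb was at 1186 CPM in recipient members against 560 CPM, and at 1210 CPM in donor members against 514 CPM. Zfp36, which encodes tristetraprolin, a protein that speeds decay of cytokine mRNAs, was at 430 CPM in recipient members against 151 CPM and at 336 CPM in donor members against 138 CPM. Nr4a2, a relative of Nr4a1, was at 112 CPM in recipient members against 11.7 CPM (log2 ratio 3.26, interval 2.91 to 3.60) and at 78.5 CPM in donor members against 8.54 CPM (3.20, interval 2.77 to 3.60). Jun, the partner of Fos in AP-1, had log2 ratios of 0.69 and 0.92, Btg2 of 0.85 and 0.58 and Klf6 of 0.50 and 0.47 in recipient and donor, and none was called. Klf2, a quiescence factor, was at 799 CPM in recipient members against 830 CPM, and at 1078 CPM in donor members against 735 CPM. Against the remaining cells matched on gate and depth, 3 of the 18 were higher, Nr4a2, Zfp36 and Zfp36l1, and the list medians were 0.53 and 0.55. Junb (0.88 and 1.05), Ier3 (0.79 and 0.51) and Csrnp1 were no longer called. Zfp36 had matched log2 ratios of 1.23 and 1.14, and Klf2 of −0.30 and 0.27.

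Promoter sequences of 4 genes described here, picked from those searched because they hold a match, are shown to let the element be seen. They carry, near the start site, one of the 2 textbook elements through which immediate-early genes are switched on. Each runs 5′ to 3′ on the gene's strand from 250 bases before to 50 after the start of a RefSeq transcript (build GRCm38.p6), with the element in capitals. In Egr2 and Zfp36 it is a CArG box, the serum response factor element, at 72 to 63 and 58 to 49 bases before the start. In Dusp1 and Nfkbid it is TGACGTCA, the CREB element, at 143 to 136 and 51 to 44 bases before the start. Egr2 has 5 such windows, 4 with a CArG box, and Nfkbid has 3, 1 with TGACGTCA; 1 window with the element is shown for each.
Egr2, chr10:67537619-67537918, plus strand: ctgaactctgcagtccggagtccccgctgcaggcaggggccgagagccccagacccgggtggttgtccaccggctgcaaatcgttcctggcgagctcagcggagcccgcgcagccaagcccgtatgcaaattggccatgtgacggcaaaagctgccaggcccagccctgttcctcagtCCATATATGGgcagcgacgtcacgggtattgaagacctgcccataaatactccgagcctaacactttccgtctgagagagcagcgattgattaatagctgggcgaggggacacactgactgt
Zfp36, chr7:28379179-28379478, minus strand: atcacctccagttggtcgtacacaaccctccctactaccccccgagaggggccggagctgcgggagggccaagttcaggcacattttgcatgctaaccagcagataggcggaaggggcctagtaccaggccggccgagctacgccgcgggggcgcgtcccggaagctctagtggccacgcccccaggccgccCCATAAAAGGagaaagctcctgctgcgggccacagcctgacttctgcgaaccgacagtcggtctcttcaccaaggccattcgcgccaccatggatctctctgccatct
Dusp1, chr17:26508423-26508722, minus strand: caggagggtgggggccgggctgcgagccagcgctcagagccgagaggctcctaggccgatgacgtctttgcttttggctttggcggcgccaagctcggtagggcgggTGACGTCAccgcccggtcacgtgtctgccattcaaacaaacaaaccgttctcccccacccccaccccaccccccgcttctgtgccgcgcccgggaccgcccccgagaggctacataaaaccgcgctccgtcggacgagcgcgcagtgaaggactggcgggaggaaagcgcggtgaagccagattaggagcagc
Nfkbid, chr7:30422156-30422455, plus strand: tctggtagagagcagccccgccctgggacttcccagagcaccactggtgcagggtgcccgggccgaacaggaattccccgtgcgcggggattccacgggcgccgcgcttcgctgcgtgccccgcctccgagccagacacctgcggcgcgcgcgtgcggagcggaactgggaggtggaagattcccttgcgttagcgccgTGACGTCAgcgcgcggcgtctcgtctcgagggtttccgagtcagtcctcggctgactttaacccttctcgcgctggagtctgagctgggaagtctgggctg

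Both elements were searched on both strands in all 32544 RefSeq promoter windows of the table. A CArG box was in 1.64% of them and TGACGTCA in 1.80%. A promoter window was at hand for 29 of the 40 genes higher in members, of which 1 (3.45%, Zfp36) had a CArG box and 1 (3.45%, Nfkbid) TGACGTCA, against 1.41% and 3.89% of the 5447 tested genes with a window. The shorter element TGACG, contained in TGACGTCA, was in 12 of the 29 (41.4%) against 39.5% of tested genes. TATAAA was in 10 of the 29 (34.5%) against 7.97%, and GCGNGGGCG, the element Egr proteins bind, in 8 (27.6%) against 11.9%. A loose form of the NF-kB element was in 20 (69.0%) against 71.9%, CCGGAAGT in 0 against 11.9%, and TGANTCA in 6 (20.7%) against 5.47%. Of the 6 score genes 4 had a window, none with a CArG box and 1, Dusp1, with TGACGTCA. These matches describe the letters in the windows and carry no test.

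Feedback regulators of NF-kB formed the next group. Of 16 tested, 5 were higher, Nfkbia, Nfkbid, Nfkbiz, Tnfaip3 and Gadd45b, against 0.584% of all tested genes. The list medians were 0.78 in the recipient and 0.61 in the donor library. Nfkbid (chr7, beside the promoter shown above) was at 159 CPM in recipient members against 21.2 CPM (log2 ratio 2.91, interval 2.62 to 3.19) and at 150 CPM in donor members against 22.7 CPM (2.72, interval 2.42 to 3.01). Nfkbia, the inhibitor that holds NF-kB in the cytoplasm, was at 476 CPM in recipient members against 195 CPM and at 373 CPM in donor members against 178 CPM. Tnfaip3, the ubiquitin-editing enzyme A20, was at 70.9 CPM in recipient members against 29.3 CPM and at 53.8 CPM in donor members against 26.8 CPM. Matched on gate and depth, Nfkbid, Nfkbiz and Gadd45b stayed 2-fold higher, with Nfkbid at log2 ratios of 2.96 and 2.71, while Nfkbia was at 1.04 and 0.84 and Tnfaip3 at 0.66 and 0.59. In the donor library 44 of the 103 Nfkbid UMIs came from 1 cell, without which its unmatched log2 ratio was 1.95.

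Among genes of receptor activation 3 of 16 tested were higher, Cd69, Tagap and Bhlhe40, against 0.584% of all tested genes. The list medians were 0.87 in the recipient and 0.58 in the donor library. Cd69 was at 368 CPM in recipient members against 91.3 CPM (log2 ratio 2.01, interval 1.83 to 2.19) and at 336 CPM in donor members against 107 CPM (1.64, interval 1.45 to 1.83). At 2000 UMIs per cell it was detected in 33.1% of recipient members against 15.1% and in 37.1% of donor members against 17.6%. Tagap, a GTPase-activating protein of activated T cells, was at 249 CPM in recipient members against 44.3 CPM and at 144 CPM in donor members against 34.2 CPM. Both Cd69 and Tagap stayed 2-fold higher when matched on gate and depth, with Cd69 at 2.07 and 1.66. Myc, a growth regulator, was at 215 CPM in recipient members against 86.2 CPM and at 161 CPM in donor members against 102 CPM, and passed 2-fold in the recipient library only; the difference between libraries was not tested. Irf4, a factor induced in proportion to receptor signal, had 18 UMIs in recipient and 4 UMIs in donor members. It was at 24.1 CPM in recipient members against 1.72 CPM (log2 ratio 3.80, interval 2.97 to 4.57). In donor members it was at 5.81 CPM against 1.08 CPM (2.42, interval 0.51 to 3.84). Irf4 had too few UMIs in all to enter the comparison across genes. Of 5 tested genes of feedback on mitogen-activated kinase signalling, Dusp2 and Rgs1 were higher, against 0.584% of all tested genes. Neither was higher when matched on gate and depth.

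Cytokine and chemokine genes had list medians of 2.88 in the recipient and 2.91 in the donor library. Of 7 tested, 5 were higher, Ccl3, Ccl4, Xcl1, Ifng and Tnf, against 0.584% of all tested genes. Ccl3 (chr11:83647844-83649355) and Ccl4 (chr11:83662584-83664683), neighbouring genes for inflammatory chemokines, had 470 and 1152 UMIs in recipient members and 191 and 1119 in donor members. Ccl4 was at 1542 CPM in recipient members against 83.0 CPM and at 1626 CPM in donor members against 46.4 CPM. A single donor cell of 17697 UMIs held 867 of the 1119 Ccl4, 165 of the 191 Ccl3 and 332 of the 401 Xcl1 UMIs. Without that cell the donor log2 ratio was 3.02 for Ccl4 (5.13 with it), 1.81 for Ccl3 (4.65 with it) and 0.59 for Xcl1 (3.09 with it), so Xcl1 was no longer 2-fold higher in the donor library. In the recipient library the cell with the most chemokine UMIs held 399, and without it the log2 ratio was 3.83 for Ccl4, 4.52 for Ccl3 and 1.19 for Xcl1.

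Ifng, the interferon of T and NK cells, had a UMI in 22 recipient members, 3 of which held at least 50% of its member UMIs, as for Ccl3 and Ccl4. It was at 103 CPM in recipient members against 12.2 CPM (log2 ratio 3.08, interval 2.71 to 3.43) and at 74.1 CPM in donor members against 9.86 CPM (2.91, interval 2.47 to 3.32). Tnf was at 87.0 CPM in recipient members against 11.8 CPM and at 50.9 CPM in donor members against 13.2 CPM. Without the same donor cell Ifng had a donor log2 ratio of 2.48 and Tnf of 1.37. Matched on gate and depth, all 5 genes stayed 2-fold higher, with Ifng at 2.22 and 1.75. These matched ratios include the chemokine-rich donor cell. Without it donor members had 38.8 CPM of Ccl3 and 103 CPM of Xcl1. The remaining donor cells matched to all members had 34.4 CPM and 59.6 CPM, so neither gene was 2-fold higher there. Without the chemokine-rich cell of each library 30 of the 40 genes were still called.

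Lists of other stimuli were small, and with 0.584% of all genes called higher a count of 0 in them sets them apart from no other genes. None of 8 tested heat shock genes and none of 7 tested glucocorticoid and quiescence genes was 2-fold higher or lower, with medians of 0.27 and 0.16 for heat shock and −0.18 and 0.15 for glucocorticoid and quiescence in recipient and donor. Hspa1a, Hspa1b, Bag3, Fkbp5, Klf9 and Cxcr4 had too few UMIs to be tested. None of 8 tested interferon-response genes was called. The 12 lowest named genes were Tsacc, Cks1b, Prrt1, Lpar5, Pclaf, Birc5, Klra7, Il3ra, Ube2c, Klra3, Gpr15 and Gaa. Each had between 0 and 5 UMIs in the members of a library, so calls of lower genes rest on few counts. Birc5, an inhibitor of apoptosis made in mitosis, had 0 UMIs in members of either library. It had 456 UMIs in the remaining recipient and 734 UMIs in the remaining donor cells. Of the 6 tested cycling genes only Birc5 and Pclaf, a replication factor, were lower, against 0.263% of all tested genes. Neither was called when matched.

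Lineage genes were read with 3 fixed gates. The Gzmk gate took cells with at least 1 UMI of Gzmk, a granzyme that marks age-associated CD8 T cells. The Ccl5 gate took cells without Gzmk and with at least 3 UMIs of Ccl5, a chemokine of memory and effector cells. The naive-type gate took cells passing neither and holding a UMI of Ccr7, Lef1 or Igfbp4, genes of naive cells.

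Members came from every lineage. Of recipient members 55 (38.5%) were in the Gzmk gate, 20 (14.0%) in the Ccl5 gate, 60 (42.0%) in the naive-type gate and 8 (5.59%) in none. Of donor members 47 (36.4%) were in the Gzmk gate, 47 (36.4%) in the Ccl5 gate and 35 (27.1%) in the naive-type gate. Against all remaining cells the Gzmk gate was fuller, with 38.5% (interval 30.5 to 47.0%) of recipient members against 24.3% and 36.4% (interval 28.1 to 45.4%) of donor members against 18.9%. Against remaining cells of the members' depth it was not, at 39.7% in the recipient and 41.1% in the donor library. With members chosen by Fosb, Egr1, Nr4a1 and Fos alone, the Gzmk gate held 22.6% of recipient and 13.0% of donor members, so the direction against all remaining cells turned. The naive-type gate held 42.0% (interval 33.8 to 50.5%) of recipient members against 33.9% of depth-matched remaining cells, and 27.1% (interval 19.7 to 35.7%) of donor members against 18.7%. The Ccl5 gate held 14.0% (interval 8.76 to 20.8%) of recipient members against 24.2% at matched depth, and 36.4% of donor members against 39.1%.

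**Figure D3:**
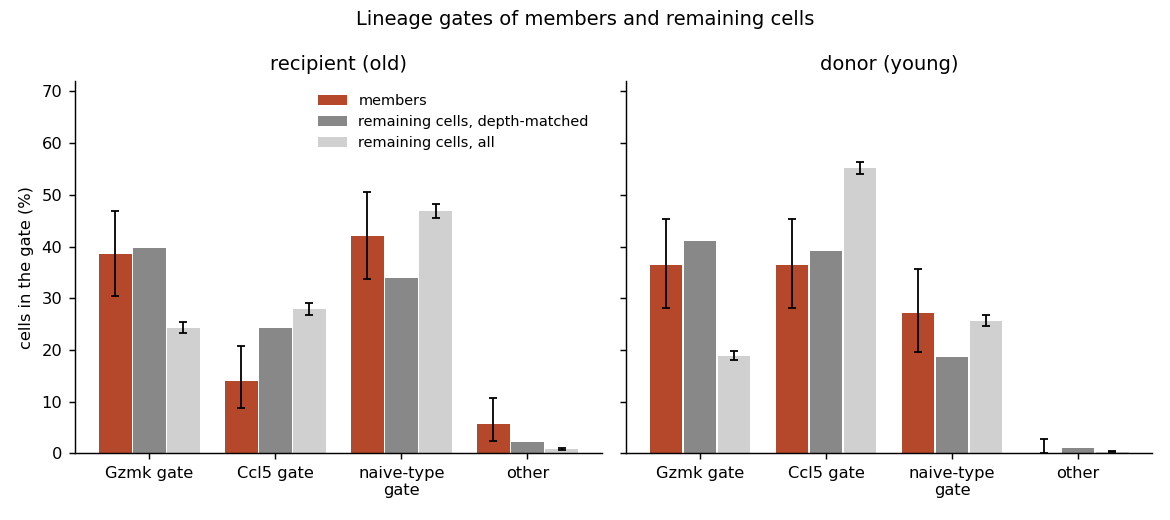
Share of cells (y axis, percent) in each lineage gate among members, remaining cells weighted to the members' depth and all remaining cells, in the recipient (left) and donor (right) library; bars on members and on all remaining cells are 95% exact binomial intervals. The Gzmk gate held 38.5% of recipient and 36.4% of donor members, above all remaining cells (24.3% and 18.9%) and close to those of matched depth (39.7% and 41.1%).

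Calls of single lineage genes changed with depth as well. Gzmk was at 379 CPM in recipient members against 189 CPM and at 296 CPM in donor members against 111 CPM, yet matched on depth alone its log2 ratio was −0.052 in the recipient and −0.17 in the donor library. Of 8 tested age-associated genes, Gzmk and the inhibitory receptors Tigit, Lag3 and Ctla4 were higher, against 0.584% of all tested genes. None of the 8 was higher when matched on gate and depth, or on depth alone. Pdcd1, which encodes PD-1, was at 74.9 CPM in recipient members against 15.8 CPM and at 16.0 CPM in donor members against 10.2 CPM. Matched on gate and depth, Pdcd1 had a log2 ratio of 1.20 in the recipient and −0.95 in the donor library. None of 10 tested naive genes and none of 10 tested memory genes was called. Ccr7, a lymph node homing receptor, was at 219 CPM in recipient members against 303 CPM and at 250 CPM in donor members against 247 CPM. Ly6c2, a surface protein of central memory cells, was at 388 CPM in recipient members against 801 CPM and at 843 CPM in donor members against 1435 CPM. Matched on gate and depth, the log2 ratios in recipient and donor were −0.28 and 0.16 for Ccr7 and −0.34 and −0.29 for Ly6c2. The gates are defined by lineage genes, Ccr7 among them. Values matched on gate and depth thus cannot show the part of depth alone. Klrg1, a receptor of effector cells, was the only gene called among 6 tested effector memory genes, against 0.584% of all tested genes. None of the 6 was called when matched on gate and depth, and none was higher when matched on depth alone.

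Within gates the levels of several genes differed, and these values are not matched on depth: the median was 3622 UMIs in recipient and 5687 UMIs in donor members of the Ccl5 gate, against 7788 and 8577 UMIs in its remaining cells. Depth also differed between gates. The median was 6312 UMIs in recipient and 6131 UMIs in donor members of the naive-type gate, against 4173 and 3807 UMIs in those of the Gzmk gate. Egr1, a score gene, was high in members of every gate: in the naive-type gate at 477 CPM in the recipient and 436 CPM in the donor library, and in the Gzmk gate at 441 CPM and 107 CPM. Egr2 was at 101 CPM in recipient members of the naive-type gate against 1.58 CPM, and at 45.9 CPM in donor members against 2.43 CPM. In the Gzmk gate Egr2 was at 103 CPM in recipient members against 2.39 CPM, and at 22.5 CPM in donor members against 1.73 CPM. Egr3 had few UMIs in the Gzmk gate: it was at 71.6 CPM in recipient members of the naive-type gate against 1.34 CPM and at 59.7 CPM in donor members against 1.21 CPM, with 2 and 0 UMIs in the members of the Gzmk gate. Nr4a3 likewise was at 37.1 CPM in recipient members of the naive-type gate against 1.98 CPM and at 22.9 CPM in donor members against 2.00 CPM, with 1 UMI in the Gzmk-gate members of each library.

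Ccl3, Ccl4, Ifng and Nr4a2 had, of the 3 gates, their lowest member levels in the naive-type gate. Ccl3 had no UMI in the members of the naive-type gate in either library. In the Gzmk gate it was at 1926 CPM in recipient members against 120 CPM and at 135 CPM in donor members against 70.7 CPM. In the recipient library 29 of the 55 Gzmk-gate members held 99.4% of the members' Ccl3 UMIs, and 32 held 95.3% of Ccl4. Few cells held much of this, since single cells had 134 and 75 of the 470 Ccl3 UMIs and 273 and 207 of the 1152 Ccl4 UMIs. Ccl4 in the Gzmk gate was at 4529 CPM in recipient members against 368 CPM and at 872 CPM in donor members against 189 CPM. In the Ccl5 gate Ccl4 was at 3291 CPM in donor members against 33.8 CPM, and at 349 CPM without the chemokine-rich donor cell. Ifng was at 289 CPM in recipient members of the Gzmk gate against 51.2 CPM and at 174 CPM in donor members against 44.8 CPM. In the naive-type gate Ifng was at 5.30 CPM in recipient members against 0.396 CPM and at 0 in donor members against 1.27 CPM. Nr4a2 was at 256 CPM in recipient members of the Gzmk gate against 42.2 CPM and at 135 CPM in donor members against 44.2 CPM, and at 15.9 and 4.59 CPM in members of the naive-type gate. Xcl1 too was lowest in the naive-type gate, at 34.5 CPM in recipient members and at 4.59 CPM (1 UMI) in donor members. In the Gzmk gate Xcl1 was at 478 CPM in recipient members against 100.2 CPM, but at 67.5 CPM in donor members against 90.7 CPM. Tnf did not follow this order in either library. Tnf was at 98.1 CPM in recipient members of the naive-type gate against 12.3 CPM and at 74.2 CPM in those of the Gzmk gate against 9.05 CPM. In donor members Tnf was at 27.5 CPM in the naive-type gate against 14.0 CPM and at 11.3 CPM in the Gzmk gate against 16.4 CPM.

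Cd69 and Myc were higher in naive-type members than in Gzmk-gate members of the same library. Cd69 was at 467 CPM in recipient members of the naive-type gate against 89.6 CPM, and at 413 CPM in donor members against 100 CPM. In the Gzmk gate it was at 256 CPM in recipient members against 78.4 CPM and at 163 CPM in donor members against 89.4 CPM. Myc was at 310 CPM in recipient members of the naive-type gate against 94.1 CPM and at 234 CPM in donor members against 102 CPM. In the Gzmk gate Myc was at 115 CPM in recipient members against 40.0 CPM and at 50.6 CPM in donor members against 54.5 CPM.

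**Figure D4:**
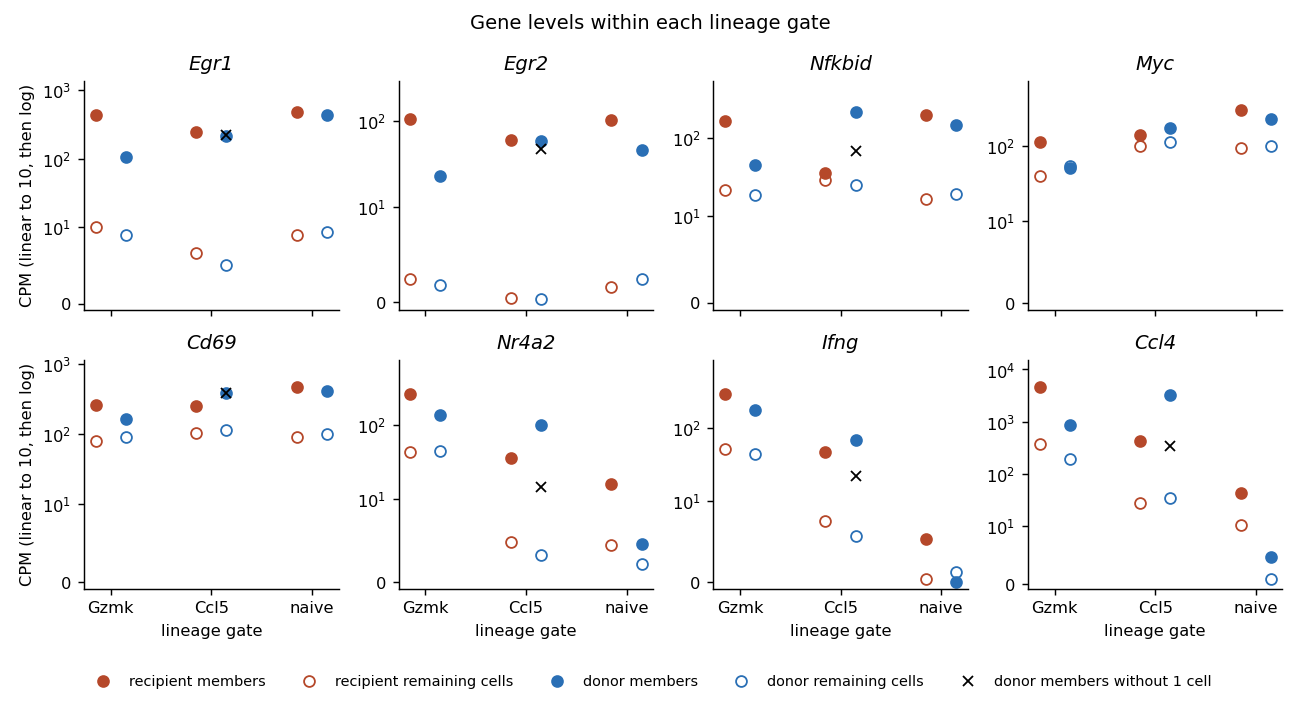
Level of 8 genes (y axis, CPM, linear to 10 and logarithmic above) in members (filled) and remaining cells (open) of the Gzmk, Ccl5 and naive-type gates of each library; crosses give donor members of the Ccl5 gate without 1 cell. Egr1 was above the remaining cells in every gate, while Ifng in recipient members was at 289 CPM in the Gzmk and 5.30 CPM in the naive-type gate.

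The members' genes also shifted below the threshold of the score. Cells were ranked by score over both libraries and divided into 6 classes. The classes differ in depth, and their values were not matched on it. The median in recipient cells was 7263.5 UMIs in the lower 90%, 4955.5 just outside the members and 4522 just inside. In the donor library these medians were 8080, 5710 and 4729 UMIs. Egr2 was at 1.05 CPM in the lower 90% of recipient cells, 3.69 CPM in the class between the top 10% and 5%, 7.92 CPM between 5% and 2%, and, within the members, 41.9, 75.9 and 206 CPM up to the top 0.5%. In the donor library the same 6 classes had 0.751, 6.01, 7.31, 24.6, 45.4 and 105 CPM. Junb was at 537 CPM in the lower 90% of recipient cells and 937 CPM in the class just outside the members, against 988 CPM just inside. In the donor library Junb was at 494 CPM in the lower 90%, 933 CPM just outside and 1105 CPM just inside. Junb and Egr2 were thus both higher in the cells just outside the members than in the lower 90%. Across the threshold Egr2 differed more than Junb did.

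**Figure D5:**
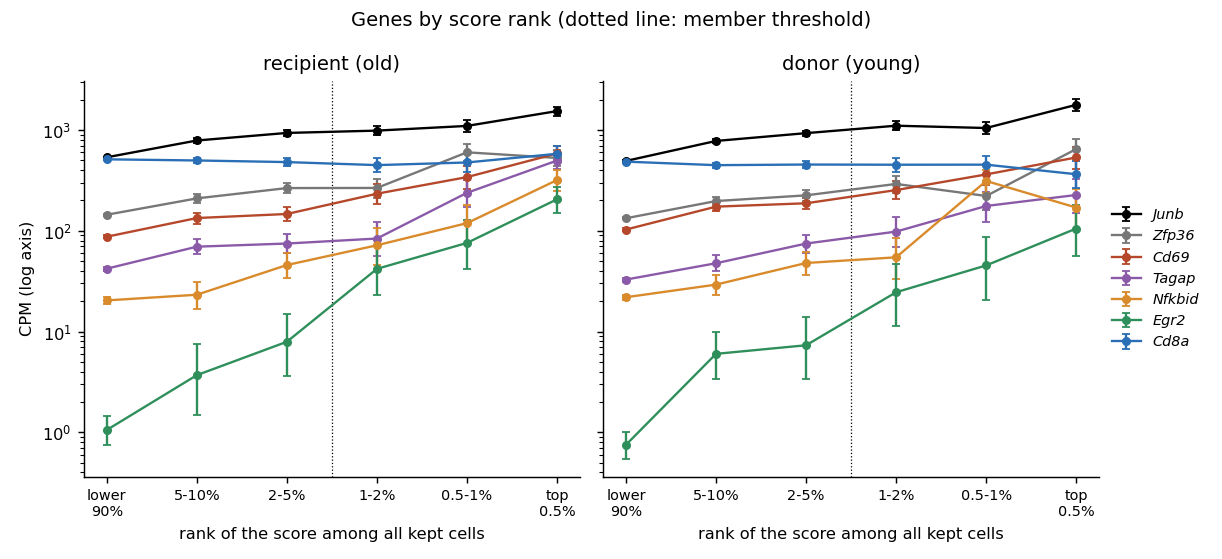
Level of 7 genes outside the score (y axis, CPM, logarithmic) by rank of the score among all kept cells (x axis), in the recipient (left) and donor (right) library; bars are 95% Poisson intervals and the dotted line is the member threshold. Egr2 was at 1.05 CPM in the lower 90% of recipient cells and 206 CPM in the top 0.5%, while Cd8a stayed near its level throughout.

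Recipient and donor members were compared over 2791 genes outside the score with at least 60 UMIs in the members of both libraries summed. Of these, 31 (1.11%) were at least 2-fold higher in recipient members and 16 (0.573%) at least 2-fold lower. Age, allele, history and library differ together between the groups and cannot be told apart. The members also differ in make-up, and these ratios were not matched for it. The Ccl5 gate held 14.0% of recipient and 36.4% of donor members, and the naive-type gate 42.0% and 27.1%. Both Egr1 and Nr4a1 were detected in 18.2% of recipient and 9.30% of donor members. Over all members Egr2 was at 100 CPM in the recipient library, with a UMI in 37 cells, and at 45.0 CPM in the donor library, with a UMI in 15 cells, a log2 ratio of 1.16 (interval 0.53 to 1.81), with 1.37 and 1.08 CPM in the remaining recipient and donor cells. Nab2, a co-repressor of Egr proteins, was at 65.6 CPM in recipient and 18.9 CPM in donor members (log2 ratio 1.80), and its ratio in the remaining cells was 0.67. Id3, a helix-loop-helix inhibitor, was at 218 CPM in recipient and 81.4 CPM in donor members (1.42), with 0.22 in the remaining cells.

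Pdcd1 (log2 ratio 2.23 in members, 0.63 in remaining cells), Bcl2a1d (2.03 and 0.61), Lag3 (1.58 and 1.12), Isg15 (1.48 and 0.26) and S100a4 (1.47 and 0.65) were higher in recipient members as well. Bcl2a1d has near-identical copies, so its reads may be split among them. Ifitm2 had 79 UMIs in recipient members against 0 in donor members, but only 2 recipient members held them and 1 of these held 57. Lower in recipient members were Fcgrt (−3.58 in members, −1.78 in remaining cells), Gzmm (−3.49 and −1.45), Ctse (−1.82 and −2.19), Polr2i (−1.70 and 0.09), Xcl1 (−1.61 and −0.47), Fam13b (−1.41 and −0.08), Ccr2 (−1.21 and −0.81) and Klrc1 (−1.12 and 0.35). For Xcl1 the direction rested on the chemokine-rich donor cell, since without the highest cell of each library its log2 ratio was 0.17.

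Members used many T cell receptor beta variable genes. A Trbv segment had a UMI in 141 recipient (98.6%) and 126 donor members (97.7%), with 18 of 22 segments seen in the recipient and 22 of 22 in the donor members. The most frequent donor segment, Trbv17, was in 18 members (14.3%, interval 8.69 to 21.6%) against 5.36% of the remaining donor cells. Trbv17 was picked from the 22 segments by its value, and the shares were not matched on depth or gate. In the recipient library no segment was in more than 14 members (9.93%).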

How the data were processed

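Gene expression was measured in 2 single-cell 5′ libraries, 1 of old recipient and 1 of young donor CD8 T cells. The authors deposited UMI counts per gene and barcode, made with Cell Ranger (build mm10; Seurat is also named), per the submitters' processing notes, and the file headers give software version 3.0.2. The annotation release is not given in the sources used here, and the T cell receptor libraries were not analysed here. The deposited counts hold 6174 recipient and 8588 donor barcodes with 41504941 and 65006187 UMIs. Of these, 5619 and 8001 barcodes passed the filters of at least 500 genes and at most 10% mitochondrial UMIs. The libraries share 105 barcodes, 65 among kept cells and 0 among members. Symbols shared by several features (71 features) were summed, and 99.9% of features were placed in GENCODE M21.

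Members and gene lists were chosen with earlier results of these data known. Counts were summed over members and over remaining cells of each library and given as CPM with exact Poisson 95% intervals, and shares with exact binomial (Clopper-Pearson) intervals. A sum of 0 was set to 3 counts for a ratio, and a ratio that this did not bound was left out. A gene was called at 2-fold in both libraries. There was no test, because each group is 1 library. Named genes were the 6 score genes, the 12 highest and 12 lowest by the smaller ratio of both libraries, a list of 31 genes, and the 8 highest and 8 lowest between recipient and donor members. Other genes named among those called were chosen after their values were seen.

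For the matched comparison, remaining cells were weighted so that each stratum of depth and gate held the members' share of UMIs. For shares, cells were thinned to 2000 UMIs, which left out 10 recipient and 5 donor members. Simulated doublets marked 278 recipient cells (4.95%) and 550 donor cells (6.87%), of which 3 and 6 were members. They were kept, and removed in an alternative. The comparison across genes was tested on simulated data with known changes, where some unchanged genes were called lower. Calls of lower genes in the real data are limited by this as well. Alternatives to the filters, the score, the top share, the scaling (TMM, edgeR 4.0.16, R 4.3.3) and the gates were computed, and 4 more were chosen after seeing the data. Analyses used Python 3.11.15, numpy 2.4.6, scipy 1.17.1, pandas 2.3.3 and scikit-learn 1.9.0.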

Additional observations from a re-analysis of the deposited data

Results flagged for a closer look

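Il7r, the receptor chain for interleukin-7, differed in direction between the libraries: it was at 245 CPM in recipient members against 356 CPM in remaining cells (log2 ratio −0.54, interval −0.76 to −0.33), and at 520 CPM in donor members against 424 CPM (log2 ratio 0.29, interval 0.14 to 0.44). The recipient ratio minus the donor ratio was −0.83, and this difference was not tested, since each library is 1 sample. Matched on gate and depth the ratios were −0.49 and 0.35.

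Barcodes outside the filters also reached the members' score. Among those with fewer than 500 genes this held for 15 of 124 recipient and 28 of 240 donor barcodes. Among those with at least 500 genes and more than 10% mitochondrial UMIs it held for 55 of 431 recipient and 25 of 347 donor barcodes. At least 2 score genes were present in 35 of the 55 recipient and 14 of the 25 donor barcodes of high mitochondrial share, but in 0 of the 15 recipient and 4 of the 28 donor barcodes with few genes. In the barcodes of high mitochondrial share the score genes took 540 CPM in the recipient and 370 CPM in the donor library, against 344 and 316 CPM in kept cells.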

How the results depend on the processing

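18 alternative settings were computed, 14 of them planned and 4 chosen after seeing the data. No paired analysis was possible because each group is 1 library. The cause of the shifts was not tested unless the setting itself fixes it. The member share was 1.39% in the recipient and 0.725% in the donor library for the top 1%, 6.32% and 4.07% for the top 5%, and 5.45% and 4.31% by a score on cells thinned to 2000 UMIs, where ties made 645 members. The 40 genes higher in members became 23 with the top 5%, 19 with a score of 4 genes (Fosb, Egr1, Nr4a1, Fos), 3 with the score on thinned cells, 19 matched by gate and depth or by depth alone, 24 under TMM scaling, 88 with genes of at least 300 UMIs, 311 with at least 1 UMI and 20 without each gene's highest member cell. The 18 genes lower became 41 with the top 1%, 0 with the top 5%, 10 with the top 2% of each library, 6 with the 4-gene score, 0 with the score on thinned cells, 9 matched by gate and depth or by depth alone, and 63 with genes of at least 300 or at least 1 UMI. The recipient median of the other immediate-early list was 1.08 with genes of at least 1 UMI. The score of 4 genes shared 75 of 143 recipient and 50 of 129 donor members, and put 22.6% of recipient and 13.0% of donor members in the Gzmk gate, 60.4% and 41.7% in the naive-type gate and 45.4% of donor members in the Ccl5 gate. The score on thinned cells put 21.5% of recipient and 51.6% of donor members in the Ccl5 gate and 25.9% of donor members in the Gzmk gate. Donor members with at least 2 score genes were in the Gzmk gate in 27.8%.

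Some called genes changed direction. Gzmk had recipient and donor log2 ratios of −0.030 and −0.12 with the 4-gene score, −0.020 and −0.017 matched by gate and depth, and −0.052 and −0.17 by depth alone. In the donor library Lag3 was at −0.20 with the 4-gene score, −0.16 matched by gate and depth and −0.26 by depth alone, and Ier3 at −0.18 with the 4-gene score. The other reversals were genes lower in members with 0 to 5 UMIs there. With the 4-gene score the log2 ratio was 0.93 for Cks1b, 1.46 for Pclaf, 2.08 for Birc5 and 2.16 for Ube2c in the donor and 0.27 for Gaa in the recipient library. With the top 5% it was 0.17 for Pclaf, 0.79 for Birc5 and 0.87 for Ube2c in the donor, and 0.11 for Prrt1 and 0.00016 for Il3ra in the recipient library. With the score on thinned cells it was 0.0077 for Cks1b, 0.42 for Birc5, 0.72 for Klra7, 0.51 for Ube2c and 0.36 for Klra3 in the donor, and 0.029 for Klra7 and 0.011 for Gaa in the recipient library. Of 17 named genes called higher, 10 stayed 2-fold higher in both libraries matched by gate and depth, 13 under TMM, 11 with the 4-gene score and 3 with the score on thinned cells. Genes of low level are limited by the totals over members, 747219 UMIs (recipient) and 688234 UMIs (donor).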
